A study of Mus musculus with 9 samples.

Results

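Lewis lung carcinoma cells recovered from the lung were compared with the same cells grown in a dish. The members are the 3 lung and 3 dish arrays, 6 of the 9 arrays of the study, read over all 19505 genes with a symbol on the array. A symbol with several array features was represented by its brightest, judged on the mean of the 9 arrays. The study addresses which genes, those of lung tissue among them, the line expresses at different sites of growth. All samples are the GFP-labelled line 3LL, an established mouse lung tumour line, with C57/BL6 given as the strain. The dish group was a monolayer culture of 7 days. The lung group was GFP-positive cells isolated 7 days after intrapulmonary transplantation, and the subcutaneous group, used here beside the comparison, GFP-positive cells isolated 7 days after transplantation under the skin. The series text calls the lungs "BLM lungs" and does not spell the letters out. The labels name an isolation of GFP-positive cells for both transplanted groups and not for the dish, so growth in the lung and isolation from it cannot be told apart. The labels do not state whether replicates were different animals or different cultures. The p-values therefore describe the spread among these arrays only, and that spread may be technical.

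A tumour cell that leaves a dish for the lung meets matrix, stroma, immune cells and a different supply of oxygen and nutrients. The alveoli are lined by flat type I cells, which exchange gas, and by type II cells, which secrete surfactant, while club cells line the small airways. Cells taken out of tissue also switch on immediate early genes within minutes to hours of a stimulus, and interferons raise the genes that present antigen to T cells.

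Values are log2 signals, and a difference is the lung mean minus the dish mean on that scale. Arrays are numbered by their replicate labels, which give no order, and values are listed for replicates 1, 2 and 3 in turn. Across genes, which do not count as independent replicates, Pearson's r was 0.980 to 0.991 among lung arrays, 0.985 to 0.987 among dish arrays and 0.969 to 0.977 between them. Background was read as the 90th percentile of the negative controls on each array (7.20 to 7.36 on lung arrays, 7.27 to 7.59 on dish arrays), and 32.4% to 34.4% of the genes lay above it on lung arrays against 29.0% to 32.6% on dish arrays. Measures of RNA and hybridisation also moved with the groups. The RNA integrity number was 8.17 ± 0.23 (SD, n = 3) in lung and 8.50 ± 0.10 in dish, and the bacterial hybridisation controls read 11.35 ± 0.35 and 12.01 ± 0.15. The mean level of 51 very long mRNAs was 9.06, 9.26 and 7.94 on the lung arrays and 7.78, 7.46 and 7.57 on the dish arrays. Lung 3 thus lay near the dish arrays in this measure and apart from lung 1 and lung 2. The markers of the line itself were mixed: the keratin gene Krt8 was above background on all 6 arrays (12.95 ± 0.42 in lung, 12.01 ± 0.34 in dish), as was the mesenchymal filament gene Vim (10.06 ± 0.32 and 9.98 ± 0.41). The epithelial genes Epcam and Cdh1, and Nkx2-1, the transcription factor of lung epithelium, were at or under background on all 6 arrays.

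Limma called 1322 of 19505 genes (6.78%) at a Benjamini-Hochberg adjusted p under 0.05, 938 higher in lung (4.81%) and 384 lower (1.97%). The median difference over all genes was -0.07, and counts and medians of gene lists are set against these shares and this median. These shares cover many genes under background. Among the 6311 genes above background on all 3 arrays of at least 1 group, a separate fit called 1142 higher and 435 lower. The median difference was 0.18 over the 6198 genes above background on all lung or all dish arrays. In the main fit, at least 736 of these 6198 genes were called higher and at least 230 lower. These counts include only genes whose groups did not overlap. The separate fit adjusted p over fewer genes, so its counts are less like those of the lists. Lists of well expressed genes are also to be read against the main-fit counts and the median of 0.18. Higher calls made up 71.0% of the 1322, and 54.8% after quantile normalization between arrays, which gave 667 higher and 551 lower. Among the 938 higher and 384 lower calls on the deposited values, 861 and 306 differed by 2-fold or more. Irrespective of the test, all lung values exceeded all dish values for 2613 genes (13.4%) and lay under them for 2934 (15.0%). Both groups were at or under background for 223 of the called genes. The count fell to 514 without dish 2, to 667 without dish 3, to 591 without lung 1 and to 765 without lung 2. Of the genes named in the following paragraphs, 135 were called, and of these 1 (Nfkb2) had overlapping groups. Lung was tested against the subcutaneous group as well, where 2927 genes (15.0%) were called, and 60 of the 135 were among them.

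The largest rise was that of a lung gene. Sftpc, which encodes surfactant protein C and marks alveolar type II cells, read 15.59, 13.45 and 16.38 in lung and 5.53, 5.83 and 5.04 in dish (15.14 ± 1.51 against 5.46 ± 0.40, SD, n = 3 each). All dish values were under background and all lung values far above it, a difference of 9.67 (SE 0.55, adjusted p = 1.85e-06). Where a gene is not above background on any array of the dimmer group, a bound is given: the brighter group's mean minus the mean background of the dimmer group's arrays, here at least 7.71 log2 units. Its subcutaneous mean was 5.38, and lung exceeded it by 9.76 (adjusted p = 3.31e-06). Sftpa1, surfactant protein A, read 9.31, 8.77 and 11.88 in lung and 3.73, 4.51 and 4.40 in dish, a difference of 5.77 (SE 0.60, adjusted p = 0.0002). Its bound was at least 2.57, and at least 1.62 without lung 3. Of 11 measured genes on the alveolar type II list, 5 rose and 0 fell (7 and 0 at an unadjusted p under 0.05), with a median difference of 1.02.

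The other called type II genes were near background even in lung. Cxcl15, a chemokine of lung epithelium, read 7.19, 6.30 and 8.31 in lung against 4.11 to 4.30 in dish (difference 3.06, SE 0.43, adjusted p = 0.00139). Sftpb, surfactant protein B, read 7.10, 5.84 and 8.65 against 4.16 to 4.92 (difference 2.65, SE 0.51, adjusted p = 0.00849). For both, only lung 3 was above background, so no bound above 0 can be given from all 3 arrays, and without lung 2 the bounds were at least 0.33 and at least 0.45. Slc34a2, the phosphate transporter of type II cells, stayed under background on every array (lung 5.29, 5.0 and 6.94, adjusted p = 0.0499). Its call was lost without any array except lung 2 (adjusted p from 0.0590 to 0.159), and its difference of 1.41 was 0.81 without lung 3.

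**Figure D1:**
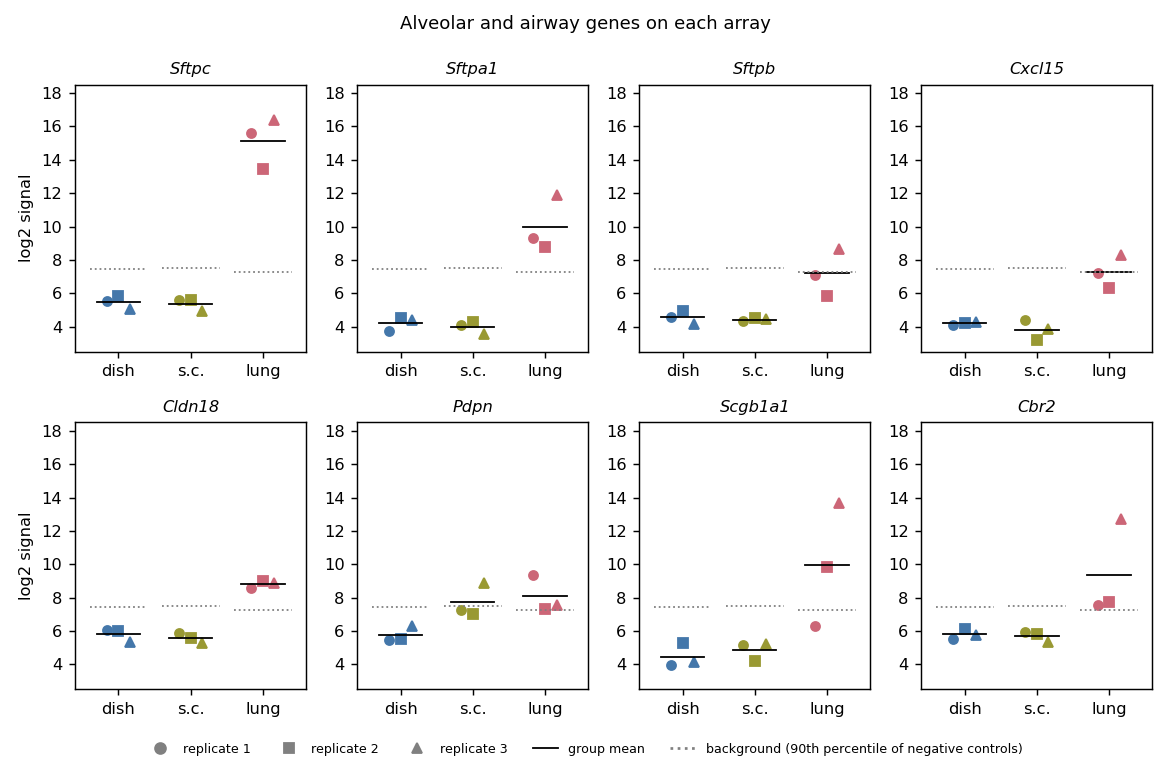
Log2 signal of 8 alveolar and airway genes on each array of the dish, subcutaneous (s.c.) and lung groups, with group means as lines and the mean background of each group dotted. Sftpc, Sftpa1 and Cldn18 are above background on all 3 lung arrays and on no dish array, while Scgb1a1 and Cbr2 are highest on lung 3.

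Alveolar type I genes rose in 3 of 7, with 3 higher and 1 lower at an unadjusted p under 0.05. Their median difference was 0.22, and 0.61, 0.63 and -0.17 on lung 1, 2 and 3. It was 0.43 without dish 2 or lung 3, 0.33 without dish 3 and 0.07 without lung 1. Cldn18, a claudin of alveolar tight junctions, read 8.58, 8.98 and 8.89 in lung and 6.05, 6.01 and 5.31 in dish. The groups were well apart, with a difference of 3.03 (SE 0.27, adjusted p = 8.09e-05, at least 1.39), and lung exceeded the subcutaneous mean of 5.57 by 3.24 (adjusted p = 3.30e-05). Pdpn, podoplanin, read 9.33, 7.33 and 7.54 against 5.48, 5.51 and 6.28 (difference 2.31, SE 0.54, adjusted p = 0.0231, at least 0.64). The subcutaneous mean of Pdpn was 7.71, and its difference from lung was not called (0.35, adjusted p = 0.719). The Pdpn call was lost without dish 1, dish 2 or lung 1 (adjusted p from 0.0711 to 0.0984), and its bound was at least 0.01 without lung 1 and at least 1.01 without lung 2. Ager, a receptor abundant on type I cells, read 6.88, 7.74 and 6.59 against 5.48, 6.24 and 5.97, near background throughout. Its call (difference 1.17, adjusted p = 0.0471) was lost without any array except lung 3 (adjusted p from 0.0505 to 0.179). Only Cldn18 of these kept its call without each array, so the type I count fell to 1 without dish 1, dish 2 or lung 1.

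Airway secretory genes differed between the lung arrays. The list's mean level ran from 4.82 to 9.19 over lung arrays and from 4.39 to 4.57 over dish arrays. Scgb1a1, the club cell secretory protein, read 6.31, 9.83 and 13.68 in lung and 3.93, 5.25 and 4.11 in dish (difference 5.51, SE 1.23, adjusted p = 0.0182, at least 2.52). Cbr2, a carbonyl reductase of club cells, read 7.55, 7.71 and 12.72 against 5.50, 6.08 and 5.76 (difference 3.55, SE 0.97, adjusted p = 0.0452, at least 1.91). Both were highest on lung 3. Without lung 3 the differences were 3.64 (bound at least 0.65) and 1.85 (bound at least 0.21), and without lung 1 the Scgb1a1 bound was at least 4.33. Scgb1a1 lost its call without any dish array or lung 2 (adjusted p from 0.0510 to 0.0706), and Cbr2 without any dish or subcutaneous array (from 0.0562 to 0.125). These were the only calls on the list of 9, whose median was 4.95 on lung 3 and -0.15 and 0.40 on lung 1 and lung 2. The count was 0 without any of the dish arrays and 1 without lung 2 or any subcutaneous array.

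Lung lineage transcription factors were called in 1 of 10 (median 0.08, and from -0.13 to 0.15 without 1 array). Etv4, a factor of lung branching that other cells use too, rose from 8.05 ± 0.50 to 9.50 ± 0.41 (adjusted p = 0.0125), and was not called without dish 2, lung 1 or lung 2 (adjusted p from 0.0536 to 0.0674). Nkx2-1, which controls the surfactant genes, read 2.97, 3.45 and 3.22 in lung and 2.87, 3.21 and 3.52 in dish, under background everywhere. Its difference was 0.01 (adjusted p = 0.985). No ciliated gene of 7 was called or above background on any lung array; 0 rose and 1 fell at an unadjusted p under 0.05.

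Markers of non-epithelial cells that a lung isolate could hold were mostly under background. An isolate could hold alveolar and airway cells as well, and the alveolar genes Sftpc and Sftpa1 were above background on all lung arrays. Whether the alveolar and airway signal came from the line or from such cells was not tested. None of 11 endothelial genes, 8 neutrophil genes, 6 B and plasma cell genes or 12 T and NK cell genes was above background on any lung array. Limma called 0 endothelial, 0 neutrophil and 0 B and plasma cell genes; at an unadjusted p under 0.05 there were 1, 0 and 0. The mean level of the endothelial list was 4.30 to 4.59 over lung arrays and 4.08 to 4.31 over dish arrays. Ptprc, the pan-leukocyte CD45 gene, read 5.81, 5.42 and 5.67 in lung and 5.58, 6.73 and 6.90 in dish, and Pecam1, the endothelial CD31 gene, 4.03, 4.90 and 4.20 against 4.01, 4.27 and 3.55. Both defining genes were thus under background on all 6 arrays. Since each array reads the RNA of many cells, fewer cells of a type and less RNA per cell cannot be told apart.

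On at least 1 lung array, 3 of 7 alveolar macrophage genes were above background, against 1 on any dish array. For monocyte and macrophage genes these counts were 2 and 1 of 14, and for fibroblast genes 2 and 1 of 11. The alveolar macrophage median difference was 0.52 on lung 3, and -0.19 and -0.16 on lung 1 and lung 2. Each of these lists held 1 call. Dcn, decorin, a fibroblast proteoglycan, read 13.94, 12.15 and 10.53 in lung and 7.32, 6.99 and 6.85 in dish, a rise of 5.15 (SE 0.60, adjusted p = 0.000455) and the only call on the fibroblast list of 11. Its subcutaneous mean was higher still at 16.64 (lung minus subcutaneous -4.44, adjusted p = 0.00057). The fibroblast count became 2 without subcutaneous 2, subcutaneous 3 or lung 3, as Lum, lumican, was then called (main adjusted p = 0.057; 0.0370, 0.0353 and 0.0184). The fibroblast collagen Col1a1 read 5.40, 5.56 and 5.67 in lung and 5.05 to 5.92 in dish. Lyz2, lysozyme of myeloid and type II cells, read 9.68, 6.32 and 10.04 against 5.28 to 6.19 (difference 2.93, adjusted p = 0.0274, at least 1.26). It was not called without any dish array, lung 1 or lung 3 (adjusted p from 0.0661 to 0.125), and its bound was at least 0.76, 2.44 and 0.58 without lung 1, lung 2 and lung 3. Plet1, a surface gene on the alveolar macrophage list that epithelia use too, rose by 1.83 (adjusted p = 0.0114, at least 0.92, or 0.48 without lung 3) and was higher in subcutaneous cells (10.26). The monocyte and macrophage mean level was 4.80 to 5.46 over lung arrays and 4.76 to 5.05 over dish arrays. Single further calls appeared on the lists of other cells without dish 1 (1 lower monocyte and macrophage gene) and without subcutaneous 1 (1 lower smooth muscle and pericyte gene). The part of any of these cells, alveolar and airway epithelium included, in these results was not tested.

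Outside the lung genes, the 12 largest rises held genes of several functions. Ly6c1, a surface antigen of endothelial and myeloid cells, read 11.46, 12.81 and 11.91 in lung and 6.27, 4.65 and 5.35 in dish (difference 6.64, SE 0.40, adjusted p = 2.33e-06, at least 4.64). Its near-identical neighbour Ly6c2 read 9.03, 9.93 and 9.50 against 5.55 to 6.64 (difference 3.55, adjusted p = 0.000225, at least 2.06), and signal may be shared between the copies. Both were higher again in subcutaneous cells, at 17.58 and 14.01. Crip1, a small LIM protein, rose from 6.69 ± 0.37 to 11.42 ± 0.55 (adjusted p = 3.99e-06, at least 4.0), Cdk2ap2, a CDK2-associated protein, from 7.81 ± 0.90 to 11.97 ± 0.31 (adjusted p = 8.09e-05), and Gprc5a, an orphan receptor abundant in lung epithelium, from 7.40 ± 0.36 to 11.17 ± 0.52 (adjusted p = 2.42e-05). Plac1, a placental gene re-expressed in tumours, rose from 5.67 ± 0.94 to 9.56 ± 0.79 (adjusted p = 0.00049, at least 2.14). Gprc5a and Plac1 were higher in lung than in subcutaneous cells, by 1.30 and 1.47 (adjusted p = 0.0112 and 0.0478), whereas the lung minus subcutaneous differences of Crip1 and Cdk2ap2 were -0.62 and 0.27 (adjusted p = 0.195 and 0.677).

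**Figure D2:**
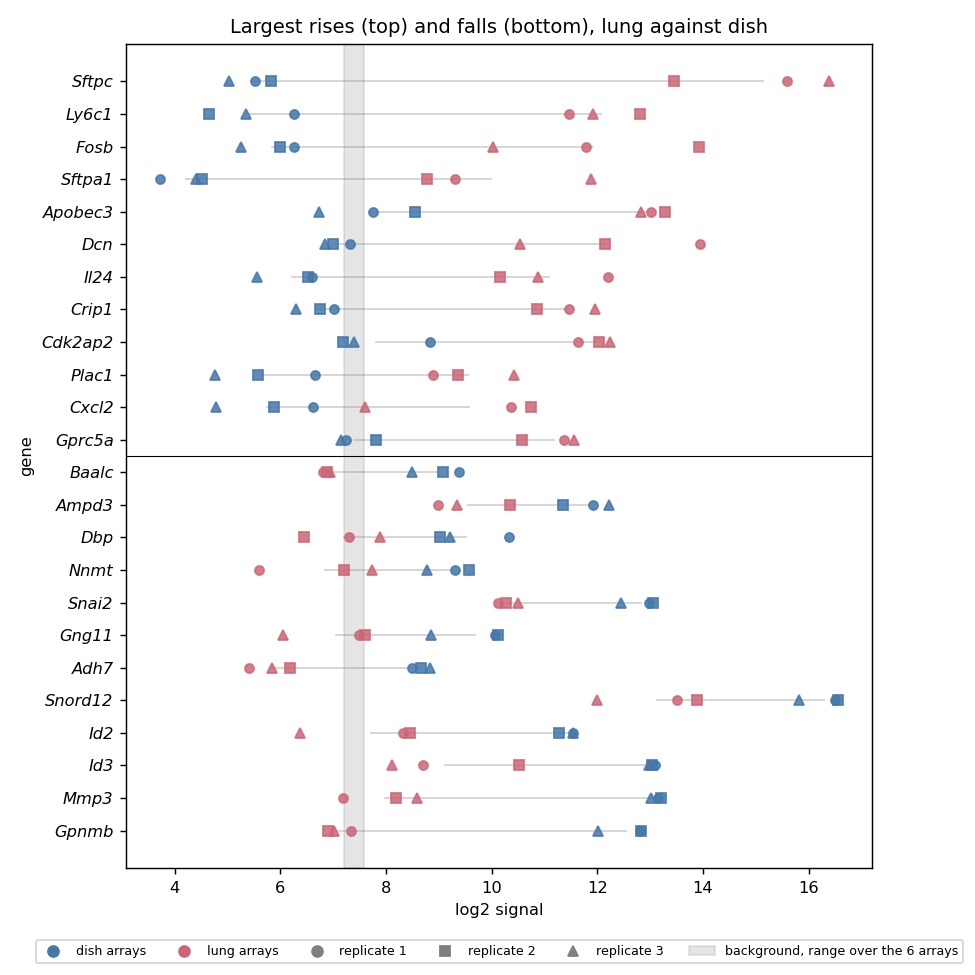
Log2 signal of the 12 largest rises and 12 largest falls on each dish and lung array, the grey band marking background. Dish and lung values do not overlap for any of the 24 genes, as the rule that chose them requires, and Sftpc spans the widest gap.

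Immediate early genes, the first transcripts to answer growth factors, stress and tissue dissociation, rose in 8 of 21 (0 fell, median 0.82, and 0.50 without lung 2). Fosb, an AP-1 subunit, read 11.79, 13.93 and 10.03 in lung and 6.27, 6.0 and 5.26 in dish (difference 6.07, SE 0.71, adjusted p = 0.000455, at least 4.49). Dusp1, a phosphatase that shuts off MAP kinases, read 15.06, 15.83 and 14.45 against 12.84, 12.21 and 12.29 (difference 2.67, SE 0.33, adjusted p = 0.000608). Ier3, a stress-induced survival gene, rose from 5.86 ± 0.18 to 8.57 ± 0.49 (adjusted p = 0.000143, at least 1.15). The AP-1 subunits Jun and Junb rose by 1.89 and 1.86 (adjusted p = 0.0105 and 0.00712), Jun not being called without dish 3 (adjusted p = 0.0539). In all 5 of these genes lung 2 was the highest lung array and lung 3 the lowest. Fos itself was above background on lung 2 alone (6.72, 7.58 and 5.09 against 4.64 to 4.87, adjusted p = 0.0444), and was called without lung 3 but not without any other single array (adjusted p from 0.0506 to 0.158). Klf6 rose by 1.06 (adjusted p = 0.0225), a call lost without any dish array, lung 1 or lung 3 (adjusted p from 0.0519 to 0.0907). Egr1, another zinc-finger member, read 6.34, 8.33 and 6.14 against 5.02 to 6.14 and was not called (adjusted p = 0.104; 0.0473 without lung 3). Ier2 rose by 1.78 (adjusted p = 0.0052); its bound of at least 0.16 became 0.08 and 0.24 without dish 1 and dish 3 and 0.42 and 0.25 without lung 1 and lung 3, and fell below 0 without lung 2. The count was 5 without dish 3.

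The same genes were high in subcutaneous cells, which were also isolated from tissue. The subcutaneous means were 10.92 for Fosb, 14.38 for Dusp1, 8.26 for Ier3, 10.68 for Jun and 12.19 for Junb. None of these 5 was called between lung and subcutaneous (adjusted p from 0.105 to 0.479), which does not show that they are alike. The part of the isolation was not tested.

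**Figure D3:**
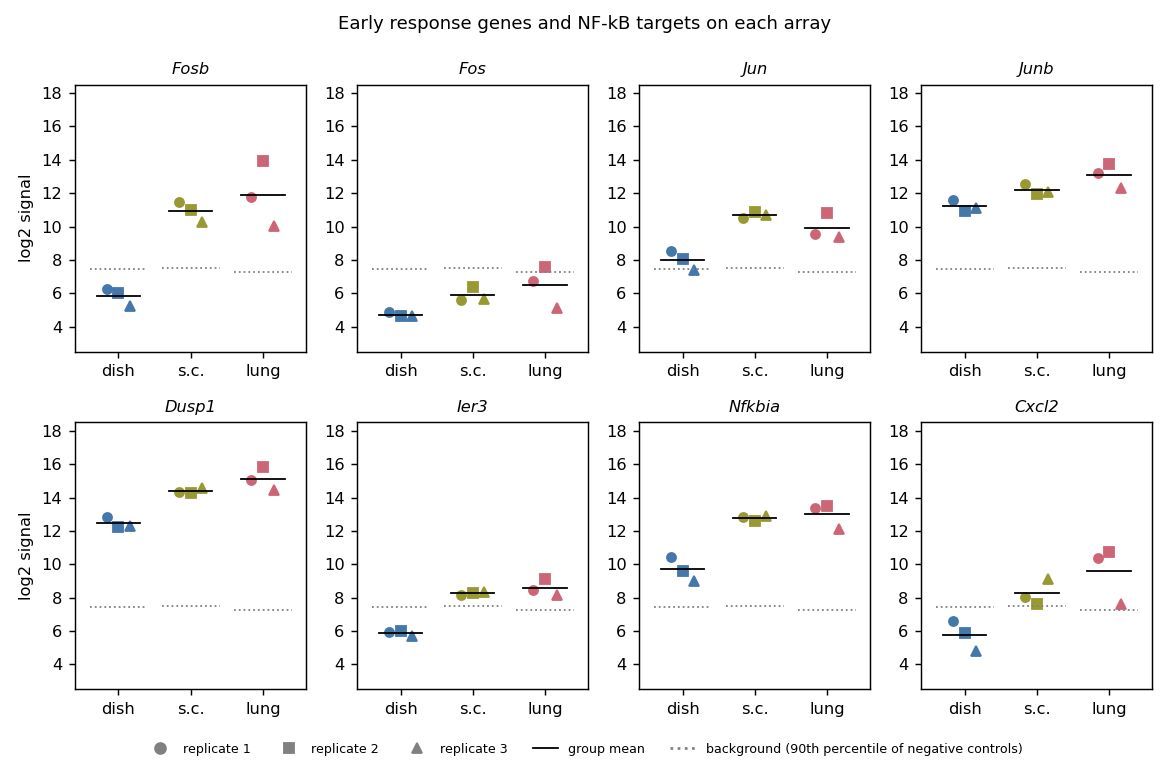
Log2 signal of 6 immediate early genes and the NF-kB targets Nfkbia and Cxcl2 on each array, with group means as lines and mean background dotted. The lung values lie above the dish values in each panel, and the subcutaneous (s.c.) means lie above the dish means too.

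NF-kB targets and inflammatory cytokines rose in 3 of 19 (median 0.22, and 0.35 without lung 3). Il24, a cytokine of the IL-10 family, read 12.21, 10.16 and 10.87 in lung and 6.60, 6.53 and 5.56 in dish (difference 4.85, SE 0.48, adjusted p = 0.000143, at least 3.66). It was low in subcutaneous cells at 6.90, and lung exceeded them by 4.18 (adjusted p = 0.000236). Nfkbia, the inhibitor that NF-kB induces to end its own activity, read 13.35, 13.50 and 12.14 against 10.44, 9.62 and 9.02 (difference 3.30, SE 0.39, adjusted p = 0.000518), with 12.78 in subcutaneous cells. Nfkb2, an NF-kB subunit, read 11.19, 11.38 and 9.43 against 9.44, 9.16 and 8.48, so that lung 3 fell within the dish range. Its call (adjusted p = 0.0495) was lost without any array except subcutaneous 3 and lung 3 (adjusted p from 0.0583 to 0.182). The list count was 6 without lung 3. Among 12 chemokines, the neutrophil attractant Cxcl2 rose (10.37, 10.74 and 7.61 against 6.62, 5.88 and 4.78, adjusted p = 0.00649, at least 2.15) and Ccl20, which attracts CCR6-bearing cells, fell (5.62, 5.91 and 5.85 against 7.93, 7.42 and 6.90, adjusted p = 0.00951). A second chemokine was called higher without lung 3. Ccl20 was near background in dish, and its bound of -0.15 was -0.41 without dish 3 and vanished without dish 1.

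MHC class I presentation, which displays peptides to CD8 T cells, rose in 7 of 12 genes, fell in 0, and had a median difference of 1.29. The class I heavy chain H2-K1 read 12.63, 12.50 and 12.78 in lung and 11.10, 11.36 and 9.55 in dish (difference 1.97, SE 0.38, adjusted p = 0.00843). B2m, the light chain, read 14.59, 14.52 and 14.45 against 13.36, 13.22 and 12.46 (difference 1.51, SE 0.27, adjusted p = 0.00624). The non-classical H2-T23 read 8.03, 8.49 and 8.57 against 6.04, 5.90 and 4.59 (difference 2.86, SE 0.36, adjusted p = 0.000711, at least 0.94), and Psmb8, an immunoproteasome subunit, 8.96, 8.76 and 10.40 against 7.65, 7.43 and 6.59 (difference 2.15, SE 0.41, adjusted p = 0.00863). In all 4 the groups were apart, with dish 3 the lowest array. Psmb10 and H2-D1 rose by 1.31 and 1.28, and Erap1, a peptidase that trims peptides, by 1.31 (adjusted p = 0.0184, 0.0199 and 0.0125). These were lost without dish 2, dish 3 or lung 2 (Psmb10, adjusted p from 0.0521 to 0.0684), without dish 3, lung 1 or lung 2 (H2-D1, from 0.0633 to 0.0857) and without dish 2 (Erap1, 0.0701). H2 genes are close copies, and signal may be shared between them. Tap1, the peptide transporter, was not called (8.45 ± 0.55 against 7.65 ± 0.15, adjusted p = 0.143). Subcutaneous levels were higher still for B2m (lung minus subcutaneous -1.54, adjusted p = 0.00273), Tap1 (-1.79, adjusted p = 0.00221) and H2-D1 (-1.24, adjusted p = 0.0129).

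Of 16 type I interferon response genes, 1 rose (median 0.22, and 0.34 without lung 3). Of 11 interferon-gamma response genes limma called 0, with 5 higher and 0 lower at an unadjusted p under 0.05 (median 0.47, and 0.22 without lung 2). Of these lists, 13 and 9 genes were not above background in either group, against 0 of the 12 class I genes. The called gene was Bst2, tetherin, which holds budding virus at the cell surface: 15.57, 15.94 and 15.54 against 12.26, 12.18 and 11.71 (difference 3.64, SE 0.24, adjusted p = 4.45e-06). Apobec3, a cytidine deaminase that restricts retroviruses and is on neither list, read 13.02, 13.27 and 12.84 against 7.76, 8.55 and 6.73 (difference 5.36, SE 0.37, adjusted p = 5.53e-06). Both lay close to the subcutaneous means of 15.59 and 13.14 (lung minus subcutaneous 0.10 and -0.09, adjusted p = 0.831 and 0.899). The type I count was 3 without lung 2 and 2 without lung 3, with 1 gene lower without dish 1, and the interferon-gamma count 1 without subcutaneous 2 or lung 3, where Igtp was called (main adjusted p = 0.0508). The strongly inducible gene Ifit1 (4.49 ± 0.03 against 4.84 ± 0.40) and the factor Irf7 (3.24 ± 0.56 against 2.27 ± 0.16) were under background on all 6 arrays. Irf7 was not called (adjusted p = 0.067), except without lung 2 (0.0264).

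Interferon-induced genes often carry an interferon-stimulated response element, a pair of GAAA cores, near their start. A search chosen after the values were seen took the pattern GAAA, any 2 bases, GAAA on both strands in RefSeq windows of GRCm38.p6, from 250 bases before to 50 after a gene's start. All 9 genes searched (the 7 called class I genes, Bst2 and Apobec3) matched a window, and 5 held the pattern in at least 1 window. Of all 32851 windows, 3.44% held it, with overlapping copies counted as 1 window. This is a share of windows and not of genes, and H2-K1 and Apobec3 had 2 windows each. The genes were chosen because they were called higher, and no uncalled genes were searched beside them. H2-K1, H2-D1, Psmb8 and Psmb10 did not hold these letters in this window. The windows of Bst2, B2m, H2-T23 and Apobec3 are shown because these holders kept their calls without each array, with the pattern in capitals, as its reverse complement where it lies on the other strand. They are Bst2 at chr8:71537423-71537722 on the minus strand, B2m at chr2:122147437-122147736 on the plus strand, H2-T23 at chr17:36032652-36032951 on the minus strand and Apobec3 at chr15:79892158-79892457 on the plus strand, each written 5′ to 3′ along the gene. A match is a description of the letters and does not show binding.
Bst2: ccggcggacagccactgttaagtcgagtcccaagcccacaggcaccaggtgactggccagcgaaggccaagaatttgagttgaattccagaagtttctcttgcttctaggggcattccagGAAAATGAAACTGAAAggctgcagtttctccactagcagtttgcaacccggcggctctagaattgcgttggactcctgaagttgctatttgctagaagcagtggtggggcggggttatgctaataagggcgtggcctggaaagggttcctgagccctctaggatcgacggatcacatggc
B2m: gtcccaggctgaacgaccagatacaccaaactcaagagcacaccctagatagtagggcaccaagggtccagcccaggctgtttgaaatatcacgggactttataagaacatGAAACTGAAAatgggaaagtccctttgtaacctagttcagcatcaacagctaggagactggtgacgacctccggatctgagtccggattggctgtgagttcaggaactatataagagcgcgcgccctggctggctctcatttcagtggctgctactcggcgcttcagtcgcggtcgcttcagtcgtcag
H2-T23: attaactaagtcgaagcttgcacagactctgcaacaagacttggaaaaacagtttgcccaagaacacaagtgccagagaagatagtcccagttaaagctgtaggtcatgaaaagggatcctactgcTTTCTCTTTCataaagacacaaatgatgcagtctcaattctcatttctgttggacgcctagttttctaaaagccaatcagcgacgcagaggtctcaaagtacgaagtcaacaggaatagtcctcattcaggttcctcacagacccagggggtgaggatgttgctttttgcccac
Apobec3: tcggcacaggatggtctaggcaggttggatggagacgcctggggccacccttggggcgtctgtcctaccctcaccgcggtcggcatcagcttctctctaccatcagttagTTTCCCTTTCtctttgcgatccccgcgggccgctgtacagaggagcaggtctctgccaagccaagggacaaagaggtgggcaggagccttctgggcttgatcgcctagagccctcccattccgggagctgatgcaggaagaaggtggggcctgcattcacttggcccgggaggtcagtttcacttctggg

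Among the falls, Gpnmb and Mmp3 dropped most. Gpnmb, a membrane glycoprotein of lysosomes and melanosomes, read 7.35, 6.90 and 7.01 in lung and 12.81, 12.83 and 12.01 in dish, so that lung cells were at or next to background (difference -5.46, SE 0.28, adjusted p = 1.09e-06). Mmp3, stromelysin, a protease that cleaves many matrix proteins, read 7.19, 8.20 and 8.58 against 13.15, 13.21 and 13.01 (difference -5.13, SE 0.37, adjusted p = 1.07e-05). Gpnmb was as low in subcutaneous cells (7.30; lung minus subcutaneous -0.22, adjusted p = 0.661), and Mmp3 stood at 9.58 there, above lung by a called margin (lung minus subcutaneous -1.59, adjusted p = 0.0128).

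The Id genes encode inhibitors of bHLH transcription factors and are targets of BMP and TGF-beta signals. All of Id1, Id2 and Id3 fell. Id3 read 8.70, 10.52 and 8.12 in lung and 13.09, 13.04 and 12.97 in dish (difference -3.92, SE 0.46, adjusted p = 0.00049). Id2 read 8.32, 8.46 and 6.38 against 11.54, 11.27 and 11.55 (difference -3.73, SE 0.51, adjusted p = 0.00122). Id1 read 11.96, 12.58 and 13.31 against 14.14, 14.13 and 14.56 (difference -1.66, SE 0.31, adjusted p = 0.00772). Id3 was lower again in subcutaneous cells (6.21; lung minus subcutaneous 2.90, adjusted p = 0.00142). Of the other TGF-beta list genes, the ligand Tgfb1 and the focal adhesion gene Tgfb1i1 rose, by 1.57 and 1.54 (adjusted p = 0.0275 and 0.0177). Tgfb1i1 was under background on all dish arrays. Its bound was -0.26, -0.17, -0.37 and -0.40 without dish 2, dish 3, lung 2 and lung 3, and 0.02 without lung 1. A negative bound gives no least size to a rise. Tgfb1 was not called without dish 2, dish 3, lung 1 or lung 3 (adjusted p from 0.0774 to 0.130), nor Tgfb1i1 without dish 2, dish 3 or lung 2 (from 0.0677 to 0.0887), so the higher count was 0 without dish 2 or dish 3 and 1 without any lung array. The inhibitor Smad7, induced by the pathway, was under background on all 6 arrays (difference -0.50, adjusted p = 0.289). The list counted 2 higher and 3 lower of 11 (median -0.01, 0.14 after quantile normalization, and from -0.35 to 0.07 without 1 array).

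Snai2, a repressor of epithelial genes in epithelial-mesenchymal transition, read 10.12, 10.26 and 10.50 in lung and 12.98, 13.05 and 12.44 in dish (difference -2.53, SE 0.25, adjusted p = 0.000143). It was the only call on the mesenchymal list of 10. Zeb1, a repressor of the same kind, was not called (7.73 ± 0.80 against 7.50 ± 0.45, adjusted p = 0.772), nor was Vim (difference 0.08, adjusted p = 0.914). On the epithelial list of 16, Krt18, the partner of Krt8 in simple epithelia, was the only call: 8.24, 7.23 and 8.66 against 5.98, 5.91 and 5.27 (difference 2.33, SE 0.34, adjusted p = 0.00178). Its bound was at least 0.62, and 1.03 and 0.31 without lung 2 and lung 3. A second epithelial gene was called without lung 3, and 1 mesenchymal gene was called higher without dish 1.

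**Figure D4:**
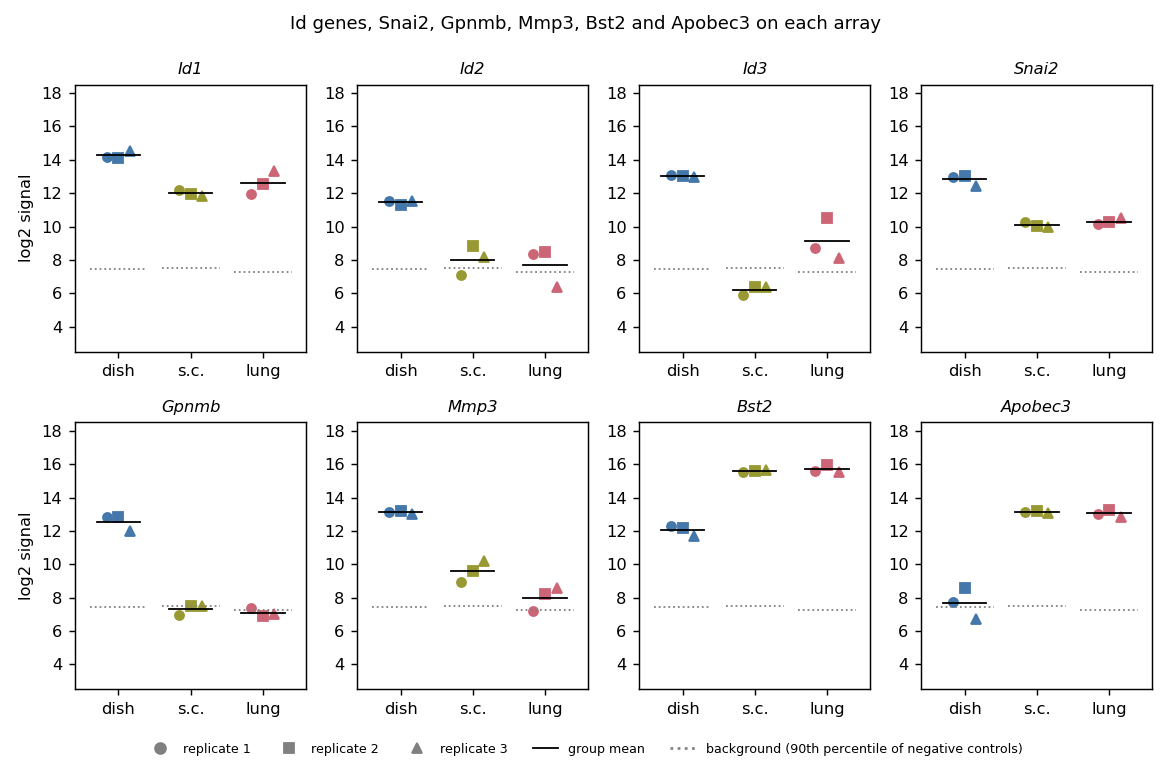
Log2 signal of the 3 Id genes, Snai2, Gpnmb, Mmp3, Bst2 and Apobec3 on each array, with group means as lines and mean background dotted. Lung lies under dish in the first 6 panels and above it in the last 2, with no overlap, and the subcutaneous (s.c.) means lie on the same side of dish as lung.

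The other large falls included Snord12, a small nucleolar RNA that guides RNA methylation (13.13 ± 1.00 against 16.29 ± 0.42, adjusted p = 0.00122). It was not low in subcutaneous cells (16.03; lung minus subcutaneous -2.90, adjusted p = 0.000962). Adh7, an alcohol and retinol dehydrogenase, fell from 8.67 ± 0.17 to 5.81 ± 0.38 (adjusted p = 0.000116, bound -1.40), and Baalc, a gene first described in leukaemia, from 8.99 ± 0.45 to 6.88 ± 0.06 (adjusted p = 0.00208, bound -1.72). Nnmt, which methylates nicotinamide, fell from 9.22 ± 0.41 to 6.85 ± 1.12 (adjusted p = 0.00649) and stood at 9.16 in subcutaneous cells (lung minus subcutaneous -2.31, adjusted p = 0.00373). The circadian factor Dbp and the AMP deaminase Ampd3 fell by 2.31 and 2.27 (adjusted p = 0.00742 and 0.00874). Gng11, a G protein subunit, fell by 2.62 (adjusted p = 0.0253), a call lost without dish 1, dish 2, lung 1 or lung 3 (adjusted p from 0.0562 to 0.113).

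Cholesterol synthesis genes rose in 7 of 18 with 0 falling (10 and 1 at an unadjusted p under 0.05), and the median difference was 1.15. Ebp, a sterol isomerase, read 9.30, 8.97 and 10.52 in lung and 8.20, 7.48 and 7.84 in dish (difference 1.76, SE 0.44, adjusted p = 0.0311). Dhcr7, the last enzyme of the pathway, read 6.98, 7.61 and 9.31 against 6.61, 6.21 and 5.87 (difference 1.74, adjusted p = 0.0430, at least 0.54). Sqle, squalene epoxidase, read 8.63, 9.29 and 10.11 against 8.03, 7.91 and 7.37 (difference 1.57, adjusted p = 0.0438), and Pmvk, phosphomevalonate kinase, 8.24, 8.68 and 9.24 against 7.43, 7.50 and 7.27 (difference 1.32, adjusted p = 0.0140). Lung 3 was the highest array in all 4. The reductase Hsd17b7, squalene synthase Fdft1 and the decarboxylase Mvd rose by 1.28, 1.18 and 1.14 (adjusted p = 0.0317, 0.0337 and 0.0430), while Hmgcs1, which makes HMG-CoA, was not called (7.36 ± 0.90 against 5.90 ± 0.33, adjusted p = 0.0713) except without subcutaneous 3 or lung 1 (0.0426 and 0.0301).

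These calls were close to the threshold. After quantile normalization between arrays, none of the 7 was called (limma adjusted p from 0.0547 to 0.130), and the list median was 0.85. On the deposited values the count was 3 without dish 1, 0 without dish 2 or dish 3, 4 without subcutaneous 2, 2 without lung 2 and 1 without lung 3. Without dish 2 the adjusted p of the 7 genes lay between 0.0510 and 0.140, and without dish 3 between 0.0583 and 0.157. Calls lost without another array, Dhcr7 without any subcutaneous array among them, had an adjusted p from 0.0512 to 0.152. Dhcr7 had a difference of 1.06 without lung 3 and a bound of at least 1.04 without lung 1. Without lung 3 no bound above 0 was left for it. The list median was 0.43, 1.08 and 1.74 on lung 1, 2 and 3, and 2.22 in subcutaneous cells against dish. Fdft1, Pmvk and Mvd were lower in lung than in subcutaneous cells (lung minus subcutaneous -2.55, -1.22 and -1.35, adjusted p = 0.000285, 0.0116 and 0.0111), but Ebp was higher (2.07, adjusted p = 0.00753).

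Fatty acid synthesis genes rose in 5 of 11 (0 fell, median 1.12). Fasn, fatty acid synthase, read 15.34, 15.22 and 14.50 in lung and 13.58, 13.17 and 13.43 in dish (difference 1.63, SE 0.31, adjusted p = 0.00843), with 13.62 in subcutaneous cells (lung minus subcutaneous 1.40, adjusted p = 0.00966). Elovl6, which lengthens palmitate, rose from 9.18 ± 0.31 to 10.65 ± 0.29 (adjusted p = 0.00547). The elongases Elovl1 and Elovl5 and the carboxylase Acaca rose by 1.33, 1.19 and 1.12 (adjusted p = 0.0146, 0.0390 and 0.0153). Fasn and Elovl6 kept their calls without each array. Elovl1 was lost without dish 2 or lung 1 (adjusted p = 0.0655 and 0.0780), Elovl5 without dish 2, dish 3, subcutaneous 2, lung 2 or lung 3 (from 0.0504 to 0.140), and Acaca without dish 1, dish 3 or lung 2 (from 0.0514 to 0.0667). The count was 3 without dish 2, dish 3 or lung 2.

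Glycolytic genes moved the other way, with 4 of 12 lower, 0 higher and a median of -0.77. Ldha, lactate dehydrogenase, read 13.23, 12.68 and 13.42 in lung and 14.77, 14.83 and 14.44 in dish (difference -1.57, SE 0.25, adjusted p = 0.00317). Pgk1, phosphoglycerate kinase, read 11.61, 11.25 and 11.74 against 13.29, 13.05 and 12.54 (difference -1.43, SE 0.30, adjusted p = 0.0125). Both were lower than in subcutaneous cells too (lung minus subcutaneous -0.92 and -1.31, adjusted p = 0.0268 and 0.0103). Tpi1 and Gapdh fell by 1.05 and 0.80 (adjusted p = 0.0198 and 0.0463). Only Ldha kept its call without each array: Pgk1 was lost without dish 2 or lung 2 (adjusted p = 0.0604 and 0.0539), Tpi1 without dish 1, dish 3, lung 1 or lung 2 (from 0.0528 to 0.0683), and Gapdh without any dish or lung array or subcutaneous 1 (from 0.0522 to 0.120). The count was 2 without any dish array or lung 1 and 1 without lung 2.

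The hypoxia list of 18 held 3 falls and 1 rise (median -0.20, and -0.09 without dish 1). Bnip3, a mitophagy receptor, read 7.57, 7.21 and 7.36 in lung and 9.16, 9.26 and 9.69 in dish (difference -1.99, adjusted p = 0.0141), P4ha2, a collagen prolyl hydroxylase, 7.13, 6.09 and 6.20 against 8.70, 7.83 and 8.13 (difference -1.75, adjusted p = 0.00995, bound -0.95), and the demethylase Kdm3a 10.04, 9.08 and 9.19 against 11.03, 10.62 and 10.96 (difference -1.43, adjusted p = 0.00979). Bnip3 and Kdm3a were high in subcutaneous cells (lung minus subcutaneous -3.09 and -2.17, adjusted p = 0.000616 and 0.000457). Bnip3 was not called without dish 2, dish 3 or lung 2 (adjusted p from 0.0524 to 0.0661). Bhlhe40, a transcriptional repressor, rose from 6.78 ± 0.02 to 8.24 ± 0.21 (adjusted p = 0.00867, at least 0.82). Vegfa, the vascular growth factor, read 12.02 ± 0.54 against 13.10 ± 0.21 and was not called (adjusted p = 0.121; 0.0473 without subcutaneous 2, where 5 of the list were lower). Of 16 respiratory chain genes limma called 0, with 1 higher and 3 lower at an unadjusted p under 0.05.

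Genes that ATF4 induces when amino acids are short fell in 6 of 17, with 0 rising and a median of -0.84. Phgdh, the first enzyme of serine synthesis, read 11.17, 11.75 and 11.53 in lung and 13.72, 13.12 and 12.79 in dish (difference -1.73, SE 0.29, adjusted p = 0.0044). Psat1, the next enzyme, read 10.32, 9.67 and 9.84 against 11.87, 11.50 and 11.23 (difference -1.59, SE 0.26, adjusted p = 0.00328). Trib3, a stress-induced pseudokinase, read 7.89, 8.39 and 7.92 against 9.28, 9.12 and 9.45 (difference -1.22, SE 0.24, adjusted p = 0.00954), and Asns, asparagine synthetase, 14.26, 14.10 and 13.96 against 15.23, 15.12 and 14.97 (difference -1.0, adjusted p = 0.0216). The cystine transporter Slc7a11, under background on all arrays, and its partner Slc3a2 fell by 1.19 and 0.98 (adjusted p = 0.0171 and 0.0443). The subcutaneous means of Phgdh and Psat1 were 11.54 and 9.61, and lung did not differ from them by a called amount (adjusted p = 0.922 and 0.434).

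Phgdh and Psat1 kept their calls without each array. Trib3 was lost without lung 1 (adjusted p = 0.0531), Asns without any array among dish 1, dish 2 and the lung arrays (from 0.0516 to 0.0801), Slc7a11 without dish 1, dish 3, lung 1 or lung 2 (from 0.0515 to 0.0709), and Slc3a2 without any dish or lung array (from 0.0673 to 0.127). The count was 3 without dish 1 or lung 2 and 2 without lung 1. Of 17 aminoacyl-tRNA synthetases, which ATF4 also controls in part, Yars alone fell (by 0.92, adjusted p = 0.0389), a call lost without any dish or lung array (from 0.0737 to 0.113). The unfolded protein response list of 14 had 2 rises: Creld2, a chaperone-like protein of the endoplasmic reticulum (13.13, 12.47 and 12.08 against 11.06, 10.06 and 9.78, adjusted p = 0.00338), and Sdf2l1 (difference 1.18, adjusted p = 0.0374). Both were higher than in subcutaneous cells (by 2.38 and 1.34, adjusted p = 0.00115 and 0.0114). Sdf2l1 was lost without dish 2, dish 3 or any lung array (from 0.0682 to 0.125). The count was 1 without dish 2, dish 3, lung 1 or lung 2 and 4 without dish 1, and 1 gene fell without dish 3.

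ATF4 binds with C/EBP partners at a composite element whose core reads TGATGNAA. A search chosen after the values were seen took this pattern on both strands in the same kind of RefSeq window. All 6 called genes matched a window, and Trib3, Slc7a11 and Asns held the pattern. Of all windows, 3.97% held it, a share of windows and not of genes, and Psat1 had 2 windows. Phgdh, Psat1 and Slc3a2 did not hold these letters in their windows. Those of Asns and Trib3 are shown since these genes were above background on all 6 arrays, with the pattern in capitals, as its reverse complement where it lies on the other strand. They are Asns at chr6:7693160-7693459 on the minus strand and Trib3 at chr2:152344011-152344310 on the minus strand, build GRCm38.p6, written 5′ to 3′ along the gene.
Asns: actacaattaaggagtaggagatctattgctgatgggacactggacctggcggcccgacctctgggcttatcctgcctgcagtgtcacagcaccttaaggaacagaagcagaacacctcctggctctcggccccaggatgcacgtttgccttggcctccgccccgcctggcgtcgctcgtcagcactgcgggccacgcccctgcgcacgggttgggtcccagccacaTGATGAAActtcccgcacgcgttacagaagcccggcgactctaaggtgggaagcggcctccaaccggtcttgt
Trib3: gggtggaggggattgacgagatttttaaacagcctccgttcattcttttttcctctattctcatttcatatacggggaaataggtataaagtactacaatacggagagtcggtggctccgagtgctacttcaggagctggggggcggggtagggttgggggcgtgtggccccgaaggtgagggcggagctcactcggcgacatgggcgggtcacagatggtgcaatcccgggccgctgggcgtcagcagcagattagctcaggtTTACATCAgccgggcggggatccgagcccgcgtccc

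Matrix proteases and inhibitors moved both ways, with 4 higher and 2 lower of 18 (median 0.07, and from -0.02 to 0.29 without 1 array). Beside Mmp3, its neighbour and relative Mmp10 fell by 1.60 (adjusted p = 0.0256), although under background on all 6 arrays. Adam8, a protease of leukocytes and tumours, read 6.96, 5.27 and 7.79 in lung and 3.12, 3.00 and 3.22 in dish (difference 3.56, SE 0.47, adjusted p = 0.000943), with only lung 3 above background. Plaur, the urokinase receptor, read 13.31, 12.58 and 12.26 against 10.89, 10.82 and 10.01 (difference 2.14, SE 0.34, adjusted p = 0.00313). Adam8 and Plaur were higher than in subcutaneous cells (by 2.35 and 1.46, adjusted p = 0.00514 and 0.0123). Mmp14, a membrane protease, rose by 1.38 (adjusted p = 0.0335) and Mmp9, a gelatinase, by 1.68 (adjusted p = 0.0131), the latter under background on all 6 arrays. Mmp10 was lost without any dish array, lung 1 or lung 2 (adjusted p from 0.0594 to 0.0930; difference -1.07 without lung 2), Mmp14 without dish 2, dish 3, lung 1 or lung 2 (from 0.114 to 0.146) and Mmp9 without dish 3 (0.0646). The counts without dish 3 were 2 higher and 1 lower, and the lower count was 1 also without dish 1, dish 2, lung 1 or lung 2.

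Integrins and laminins, by which cells hold to basement membrane, rose in 5 of 16 with 0 falling (median 0.09, and from -0.03 to 0.28 without 1 array). Itga5, the fibronectin receptor chain, read 10.16, 10.09 and 9.82 in lung and 8.44, 7.50 and 7.33 in dish (difference 2.26, SE 0.30, adjusted p = 0.000997). The laminin receptor chains Itga3 and Itga6 rose from 8.35 ± 0.28 to 10.12 ± 0.14 and from 12.59 ± 0.23 to 14.05 ± 0.30 (adjusted p = 0.000959 and 0.0038). Lama5, a laminin chain of mature epithelia, read 8.89, 9.45 and 6.98 against 4.47 to 4.77 (difference 3.78, SE 0.60, adjusted p = 0.00301, at least 1.01). Its bound was 0.51 without lung 2 and 1.74 without lung 3. Lamc1 rose by 2.11 (adjusted p = 0.0190), a call lost without dish 2, dish 3, lung 1 or lung 2 (adjusted p from 0.0682 to 0.0949). With the mean very long mRNA level as a covariate, limma called neither Lama5 (1.45, adjusted p = 0.300) nor Lamc1 (0.45, adjusted p = 0.840). Itga5 (1.81, adjusted p = 0.0998) and Itga3 (1.73, adjusted p = 0.0583) were not called in that fit either.

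Collagen and matrix genes rose in 3 of 17 and fell in 1 (median 0.42). The median was 0.54, 0.94 and -0.0054 on lung 1, 2 and 3. It was 0.75 without dish 2, 0.26 without lung 2 and 0.73 without lung 3. Hspg2, perlecan, a basement membrane proteoglycan with a very long mRNA, read 13.99, 14.64 and 11.15 against 10.30, 9.34 and 10.14 (difference 3.33, SE 0.66, adjusted p = 0.00954; 0.0566 without dish 2). Sparc, a collagen-binding protein, rose by 1.33 (adjusted p = 0.0220) and Col6a2 by 1.56 (adjusted p = 0.0354), the latter under background on all 6 arrays. Sparc was lost without dish 1, dish 2 or lung 2 (adjusted p from 0.0736 to 0.105), and Col6a2 without any dish array, lung 1 or lung 2 (from 0.0620 to 0.138). Thbs2, an inhibitor of angiogenesis, fell (4.83, 5.65 and 6.10 against 7.49, 7.34 and 7.43, difference -1.89, adjusted p = 0.00469, bound -0.15). The higher count was 1 without dish 1 or lung 2, 0 without dish 2 and 5 without lung 3.

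Of 18 cytoskeletal genes controlled by SRF, 2 were called higher (median 0.51, and 0.25 without lung 2). This share is no larger than that of the well expressed genes, at least 736 of 6198. Vcl, vinculin of focal adhesions, rose from 7.57 ± 0.16 to 9.26 ± 0.54 (adjusted p = 0.00555), and Srf itself read 9.49, 9.96 and 8.59 against 8.53, 7.57 and 7.97 (difference 1.32, adjusted p = 0.0423). Srf was not called without dish 2, dish 3, subcutaneous 2, lung 1 or lung 2 (adjusted p from 0.0512 to 0.175), which left 1, while 4 were called without lung 3. Among 14 YAP and TEAD targets limma called 0 (2 higher and 1 lower unadjusted; 1 without subcutaneous 3 or lung 2 and 2 without lung 3).

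Cell cycle lists held few calls. Of 21 mitosis genes, Aurka, the spindle pole kinase, fell (11.41, 11.12 and 11.07 against 12.76, 12.58 and 12.70, difference -1.48, SE 0.27, adjusted p = 0.00699) and Cenpe, a kinetochore motor, rose (11.77, 11.85 and 7.72 against 7.57, 7.32 and 7.52, adjusted p = 0.0447). The Cenpe rise rested on lung 1 and lung 2, and its call was lost without any array except lung 3 (adjusted p from 0.0503 to 0.177). Mki67, the Ki-67 proliferation antigen, showed the same shape, at 14.34, 14.85 and 9.49 in lung and 9.74, 9.76 and 9.61 in dish. It was not called (adjusted p = 0.0684), but without lung 3 its difference was 4.89 (adjusted p = 4.24e-06). The mitosis list had 3 rises without lung 3. Of 20 replication genes, Mcm5, a helicase subunit, fell by 0.91 (adjusted p = 0.0380), a call lost without any dish or lung array (adjusted p from 0.0589 to 0.107), while 2 and 3 fell without subcutaneous 2 and subcutaneous 3.

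Cdkn1a, the p21 inhibitor of cyclin-dependent kinases and a p53 target, read 14.36, 13.77 and 13.95 in lung and 12.10, 12.16 and 11.28 in dish (difference 2.18, SE 0.36, adjusted p = 0.00386). Ccne2, a cyclin of the G1 to S step, read 12.88, 12.80 and 13.22 against 14.43, 14.59 and 14.57 (difference -1.56, SE 0.23, adjusted p = 0.00193). These were the calls among 14 G1 genes (2 rose without lung 3). Of 13 p53 targets, Cdkn1a and the death receptor Tnfrsf10b (difference 1.70, adjusted p = 0.00267, at least 0.90) rose. Trp53inp1 fell by 1.19 under background (adjusted p = 0.0155), a call lost without dish 2, dish 3, lung 1 or lung 2 (adjusted p from 0.0539 to 0.0792). Myc, highly expressed on all 6 arrays, was not called (15.79 ± 0.40 against 16.51 ± 0.03, adjusted p = 0.103).

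Genes of iron handling included a fall in Tfrc, the transferrin receptor (7.45, 7.04 and 7.15 against 9.59, 9.26 and 9.05, difference -2.09, SE 0.40, adjusted p = 0.00835), and in Ftl1, ferritin light chain (difference -1.07, adjusted p = 0.0232). Lcn2, which binds iron-laden siderophores, rose (7.92, 6.37 and 8.78 against 4.40 to 4.76, difference 3.06, adjusted p = 0.0156, at least 0.27). Ftl1 was lost without dish 2, dish 3 or any lung array (adjusted p from 0.0503 to 0.0888) and Lcn2 without dish 2, dish 3 or lung 1 (from 0.0618 to 0.0656), with an Lcn2 bound of 0.15 without lung 1, 0.93 without lung 2 and below 0 without lung 3. Beside Gpnmb, the lysosome list lost signal in Hexa (difference -1.57, adjusted p = 0.0252) and Atp6v0d1 (difference -1.20, adjusted p = 0.00899), 3 of 16 in all and 1 without dish 2. Hexa was lost without dish 1, dish 2, lung 1 or lung 2 (from 0.0556 to 0.118) and Atp6v0d1 without dish 2 (0.0514). Sqstm1, an autophagy receptor, fell by 1.04 (adjusted p = 0.0242) as the only call of 14 autophagy genes, lost without dish 1, dish 2 or any lung array (from 0.0528 to 0.0859); 1 autophagy gene was higher without lung 2, and 2 iron genes without subcutaneous 3.

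Growth factor feedback genes rose in 2 of 15 and fell in 1. Ereg, an EGF receptor ligand, rose by 1.58 (adjusted p = 0.0188, at least 1.00), Errfi1, which inhibits that receptor, by 1.41 (adjusted p = 0.0105), and Dusp4, a MAP kinase phosphatase, fell by 1.62 (adjusted p = 0.0105). Ereg was lost without dish 2, lung 1 or lung 2 (adjusted p from 0.0507 to 0.0968), Errfi1 without lung 1 (0.0567) and Dusp4 without dish 2 (0.0506). Of 13 immune checkpoint and NK ligand genes 2 rose: Ulbp1, which engages NKG2D on NK cells (11.14, 11.13 and 10.12 against 9.52, 9.01 and 8.62, adjusted p = 0.00727), and Cd47, the signal that restrains phagocytes (13.21, 13.32 and 14.35 against 12.22 to 12.42, adjusted p = 0.0202). Cd47 was lost without dish 2 or dish 3 (0.0708 and 0.0741). In nuclear transport, Ipo4 rose (12.59 ± 0.24 against 10.48 ± 0.61, adjusted p = 0.00162; lung minus subcutaneous 1.86, adjusted p = 0.0016) and Tnpo3 fell (8.22 ± 0.40 against 9.68 ± 0.17, adjusted p = 0.00799), of 18. Of 19 splicing factors 3 rose: the kinase Clk1 by 1.74 (adjusted p = 0.00683), Srsf11 by 0.94 and Sf3b1 by 0.84. The last 2 (adjusted p = 0.0256 and 0.0466) were lost without any dish array, lung 1 or lung 2 (from 0.0523 to 0.174), and Sf3b1 also without lung 3 or subcutaneous 1, within that range.

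The very long mRNAs, listed only for the length of their transcripts, rose in 18 of 51 with 0 falling, and the median was 1.44, 1.61 and 0.18 on lung 1, 2 and 3 (0.21 in subcutaneous cells). Bptf, a chromatin remodelling subunit, read 11.03, 10.98 and 7.09 in lung and 6.59, 6.22 and 6.58 in dish (difference 3.24, SE 0.79, adjusted p = 0.0264, at least 2.27, or 3.58 without lung 3). Dst, a cytoskeletal linker, read 8.25, 8.62 and 8.66 against 6.21, 6.25 and 5.87 (difference 2.40, SE 0.25, adjusted p = 0.000225, at least 1.09), so that it was high on all lung arrays. The cadherin Fat1 and the dynein heavy chain Dync1h1 rose by 3.19 and 2.5 (adjusted p = 0.000753 and 0.00242, at least 2.20 and 2.06). Bptf was lost without any dish array, lung 1 or lung 2 (adjusted p from 0.0630 to 0.122). The count was 8 and 9 without dish 2 and dish 3, 7 without lung 1 or lung 2, and 30 without lung 3. With the mean level of these mRNAs as a covariate, 212 genes were called in all, 156 higher and 56 lower. In that fit Sftpc stood at 11.36 (adjusted p = 2.22e-05), Scgb1a1 at 10.15 (adjusted p = 0.00308), Fosb at 3.52 (adjusted p = 0.0523), Hspg2 at 0.67 (adjusted p = 0.728) and Mki67 at -1.03 (adjusted p = 0.577), and the immediate early list kept 1 call of 21. This level differs between the groups themselves, so the covariate takes out part of the contrast.

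**Figure D5:**
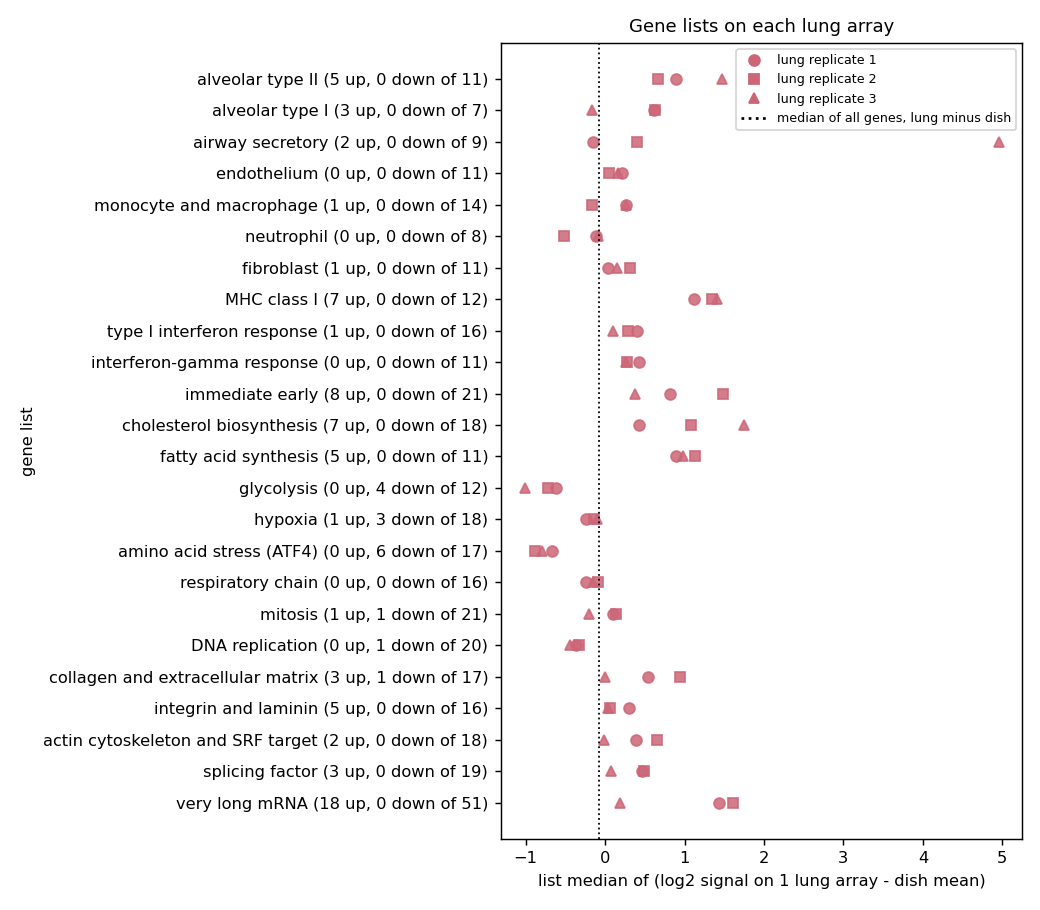
Median over the members of 24 gene lists of the log2 signal on each lung array minus the dish mean, with the counts of called genes in brackets and the median of all genes dotted. The airway secretory median is 4.95 on lung 3, the very long mRNA median is 0.18 there against 1.44 and 1.61 on the other lung arrays, and the 3 arrays lie close together for MHC class I.

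The remaining lists held at most 1 call in either direction. Ncl, nucleolin, rose by 1.17 and Dkc1, a pseudouridine synthase, fell by 1.13 among 17 ribosome biogenesis genes (adjusted p = 0.0260 and 0.0437). Mrps12 rose by 1.14 among 16 mitochondrial ribosomal proteins (adjusted p = 0.0427), and the linker histone H1f2, whose family members are close copies, by 1.94 among 13 histones (adjusted p = 0.0206). Each was lost without at least 2 of the arrays: Ncl without any dish array, lung 1 or lung 2 (adjusted p from 0.0693 to 0.127), Dkc1 without any dish array, subcutaneous 2, lung 2 or lung 3 (from 0.0554 to 0.138), Mrps12 without dish 2, dish 3, subcutaneous 1 or any lung array (from 0.0548 to 0.162), and H1f2 without dish 3 or lung 3 (0.0778 and 0.0610). Limma called 0 of 13 cytosolic ribosomal proteins (0 higher and 2 lower unadjusted), 0 of 17 proteasome subunits (2 and 0), 0 of 11 heat shock genes (3 and 0), 0 of 6 MHC class II genes (0 and 1), 0 of 8 dendritic cell genes (0 and 1), 0 of 9 smooth muscle and pericyte genes (0 and 2), 0 of 6 mesothelial genes (0 and 0) and 0 of 7 erythroid and platelet genes (1 and 0). Of 12 Nrf2 antioxidant genes Slc7a11 alone fell. Cd4 fell by 1.11 among the T and NK cell genes (adjusted p = 0.0498), above background on 1 dish array alone, and the call was lost without any dish array, subcutaneous 1, lung 1 or lung 2 (from 0.0624 to 0.185). H2-DMb1 of MHC class II was called lower without lung 3 (5.60, 5.0 and 9.15 against 7.33 to 7.94, adjusted p = 0.00133). The class II list median was -0.29, -0.48 and 1.27 on lung 1, 2 and 3, so that lung 3 stood apart. Of its 6 genes, 5 were not above background on any lung or dish array.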

How the data were processed

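The authors deposited 1 table of log2 signals from a 1-colour whole-transcript array, with 28846 rows and 9 arrays, 3 per group. Array values carry no read depth, and the number of arrays limits precision. How the values were normalized is not given in the sources used here, and they were used as deposited, so a change common to most transcripts cannot be told from scaling. Of 22206 gene features, 19572 had 1 symbol, 0 several and 2634 none, which left 19505 genes. Symbols were looked up in a RefSeq table of GRCm38.p6, and 0 changed. There was no filter on level.

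The test was limma's (version 3.58.1, R 4.3.3; lmFit, then eBayes; 9 arrays, 3 group means, two-sided, Benjamini-Hochberg over 19505 genes), and other steps used Python. On simulated data for lung against dish over 19505 genes, 11, 44, 48 and 50 of 50 genes changed by 1, 2, 3 and 4 log2 units were recovered, with 6 false calls. The simulated noise was independent between genes and held no effect shared across an array. The simulation therefore does not give the number of false calls in these data. The members and the 58 gene lists (891 genes, 801 measured) were chosen with earlier results of these data known, and other list members were not analysed here. Named genes are the 12 highest and 12 lowest differences among called genes whose groups do not overlap and whose brighter group is above background on all 3 arrays (unnamed transcripts passed over), up to 4 called genes per list (2 in each direction first) or the largest difference where none was called, and genes that define a list. Further called members of a list (Ly6c2 beside Ly6c1 as well) were named after their values were seen. Lists are described by counts and medians with no test. Groups and replicate numbers come from sample titles. Alternatives were other normalizations, filters, covariates, variance models and leaving out each array.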

Additional observations from a re-analysis of the deposited data

Results flagged for a closer look

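Srf and Thbs2 moved in opposite directions at the 2 transplantation sites when each was set against dish. Srf, the serum response factor, was 1.32 higher in lung than in dish and lower in subcutaneous cells (subcutaneous minus dish -1.28, adjusted p = 0.0310), and lung exceeded subcutaneous by 2.60 (limma adjusted p = 0.000603). Thbs2, thrombospondin 2, had a lung minus dish difference of -1.89 and was higher in subcutaneous cells than in dish (2.24, adjusted p = 0.000583), with a lung minus subcutaneous difference of -4.14 (adjusted p = 2.57e-05). Both comparisons with dish share the dish arrays. The limma call of Srf in lung against dish was lost when any 1 of 5 arrays was left out (adjusted p from 0.0512 to 0.175). It was also lost after quantile normalization (adjusted p = 0.0927). Thbs2 was under background on all lung arrays and near it in dish. No group was large enough for a search for single outlying arrays.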

How the results depend on the processing

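The 1322 calls (938 higher, 384 lower) became 3039 with array weights (1934 and 1105), 856 with the RNA integrity number as a covariate (630 and 226), 212 with the very long mRNA level as a covariate (156 and 56) and 286 with lung replicate 3 as the only lung array (227 and 59), a setting chosen after seeing the data. Leaving out 1 array at a time gave 514 to 1442 calls, 390 to 1122 higher and 124 to 423 lower. The lowest of these totals and directions came without dish replicate 2. With array weights each array's weight is estimated from the same data; the cause of the other changes was not tested. Quantile normalization, a filter on dim genes, the 6 arrays alone, an intensity trend, robust fitting and the mean of a gene's features kept the total within 1.5 times, between 1218 and 1577. Of 135 named called genes, 70 kept their call without any 1 array. Over all settings and named genes, called or not, 2744 values stayed on their side of the threshold. Of these, 2719 had the same sign. A call was lost in 534 values and gained in 59. The losses were uneven, with 90 under the very long mRNA covariate, 36 under the RNA integrity covariate and 2 under robust fitting. A further 3 values of genes called in the main analysis changed sign and lost the call with the very long mRNA covariate. These were Cenpe (-0.39), Bptf (-0.18) and Fos (-0.22). Of genes not called, 25 values changed sign, Mki67 (-1.03 with that covariate) among them. Fitting the replicate number as a block gave 1313 calls (947 higher, 366 lower). Same-numbered lung and dish arrays showed little shared deviation (r 0.030, -0.057 and 0.025 across genes). So few correlations cannot decide whether the numbers pair the arrays. Signals near background limit most cell type markers.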
